A study of Mus musculus with 26 samples.

Results

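Adipocyte markers are genes whose transcripts are abundant in fat cells and scarce in muscle fibres, and their level in a muscle sample is commonly read as a sign of fat cells in it. The 7 markers described here are Adipoq, Cfd, Retn, Lep, Plin1, Cidec and Pparg, chosen by name: every probe set (the group of short probes that reads one transcript) was taken whose platform annotation named exactly that gene. Of the 7, 5 had such a probe set, 1 each, among the 18193 genes with a probe set of their own. Cfd and Plin1 had none in the annotation used and were not analysed here. Adipoq, Retn, Cidec and Pparg were bright enough to be among the 14847 genes tested, and Lep lay under the filter on dim probe sets, with a mean log2 value of 7.26 against a limit of 7.47.

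The arrays measured total RNA from TA/EDL, the tibialis anterior and extensor digitorum longus muscles, which are fast muscles of the lower leg, in 26 mice with 1 array per mouse. All mice were littermates of mixed C57/BL6 and 129 background, were housed 1 to a cage, and carried either the FLOX genotype (the controls) or a skeletal-muscle-specific knockout of PGC-1a (MKO). PGC-1a is the transcriptional coactivator encoded by Ppargc1a, and the sources used here give neither the driver of the deletion nor the age or sex of the mice. Ad libitum intake of the AIN-93M diet was recorded for at least 10 days. Calorie-restricted (CR) mice then received 80% of it for the first week and a 40% CR form of the diet at 60% of it for about 11 weeks, and control-diet mice received 90% of it, in a design of 12 weeks. The groups were 7 MKO mice on CR, 7 MKO mice on the control diet, 6 FLOX mice on CR and 6 FLOX mice on the control diet.

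Adipocytes store triglyceride in a large lipid droplet and also secrete hormones. Adiponectin (Adipoq), resistin (Retn), leptin (Lep) and adipsin (Cfd, complement factor D) are secreted by mouse fat cells, CIDEC and perilipin 1 (Plin1) sit on the droplet, and PPARγ (Pparg) is the nuclear receptor that drives the making of a fat cell. It binds DNA as a pair with RXR at a repeat of the letters AGGTCA, and it works with proteins of the C/EBP family. In and around muscle, fat cells lie between fibres and along the connective tissue sheets, and muscle fibres themselves express part of the machinery of lipid synthesis and storage. In a bulk sample, fewer cells of a type and less RNA per cell cannot be told apart.

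Array medians of the deposited intensity lay between 212 and 232, and within a group arrays correlated at 0.984 to 0.996. The tissue label was met by its markers: all 10 listed markers of skeletal muscle fibres were measured, and their summed intensity was between 289471 and 304065 in every mouse. The targeted gene went against the labels. All 5 probe sets of Ppargc1a were brighter in the mice labelled MKO on both diets, and the brightest averaged 1674 ± 160 in MKO mice on CR (SD, n = 7), 1542 ± 372 in MKO mice on the control diet (n = 7), 1104 ± 189 in FLOX mice on CR (n = 6) and 911 ± 67.3 in FLOX mice on the control diet (n = 6). The sources used here do not say which exons those probes read, so the deletion could not be checked. Below, the mice labelled MKO are called MKO mice, and any direction between genotypes rests on that label.

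The promoters of all 7 markers were in the RefSeq table, as 10 start sites of GRCm38.p6. Those shown are the 250 bases before the start site of Adipoq and Retn, which varied together from mouse to mouse, and of Lep, Cidec and Pparg, where a motif of the adipocyte factors was found. Capitals mark a match to TTGCNNAA, a motif of the C/EBP family, on either strand, and all other bases are in lower case.
Adipoq promoter (chr16:23146286-23146535, plus strand): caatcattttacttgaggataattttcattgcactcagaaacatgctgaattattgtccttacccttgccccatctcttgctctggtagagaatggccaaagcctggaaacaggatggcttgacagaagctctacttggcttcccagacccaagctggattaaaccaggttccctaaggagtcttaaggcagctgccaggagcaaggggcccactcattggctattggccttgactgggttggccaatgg
Retn promoter (chr8:3655520-3655769, plus strand): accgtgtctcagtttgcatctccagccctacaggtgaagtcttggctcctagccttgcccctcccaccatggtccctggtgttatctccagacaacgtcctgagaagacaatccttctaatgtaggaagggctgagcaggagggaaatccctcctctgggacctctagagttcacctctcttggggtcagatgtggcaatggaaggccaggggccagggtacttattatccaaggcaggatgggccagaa
Lep promoter (chr6:29059971-29060220, plus strand): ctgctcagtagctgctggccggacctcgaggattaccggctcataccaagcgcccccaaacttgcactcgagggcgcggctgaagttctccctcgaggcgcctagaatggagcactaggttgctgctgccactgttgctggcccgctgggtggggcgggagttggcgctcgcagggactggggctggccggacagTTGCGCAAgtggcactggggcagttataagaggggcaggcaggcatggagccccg
Cidec promoter 2 (chr6:113434765-113435014, minus strand): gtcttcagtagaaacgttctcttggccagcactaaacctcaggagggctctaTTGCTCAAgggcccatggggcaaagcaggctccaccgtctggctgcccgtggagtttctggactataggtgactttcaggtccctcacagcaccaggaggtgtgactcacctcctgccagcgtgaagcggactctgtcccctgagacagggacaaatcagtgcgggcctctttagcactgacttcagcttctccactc
Pparg promoter 3 (chr6:115421816-115422065, plus strand): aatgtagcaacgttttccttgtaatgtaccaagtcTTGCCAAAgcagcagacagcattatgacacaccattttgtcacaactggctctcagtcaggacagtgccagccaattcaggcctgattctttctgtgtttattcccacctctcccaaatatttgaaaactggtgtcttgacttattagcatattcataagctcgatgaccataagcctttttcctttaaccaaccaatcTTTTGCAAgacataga
The C/EBP motif stood 55 to 48 bases before the Lep start and read as a match on both strands. It stood 198 to 191 bases before the second Cidec start, and at 215 to 208 and 16 to 9 bases before the third Pparg start. It was also in the Plin1 promoter, so that 4 of the 10 marker promoters held it, and 9.56% of all 32851 promoters in the table held it in the same 250 bases. The windows of Adipoq and Retn held none of the motifs searched, which were TTGCNNAA, AGGTCA, 2 copies of AGGTCA with 1 base between them, and the TATA box TATAAA. The spaced repeat, which PPARγ and RXR bind together, was in none of the 10 promoters and in 0.0335% of all promoters. A single AGGTCA was in Pparg promoters 1 and 2 and in 14.0% of all promoters. These matches describe letters in a window and show no binding.

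Among the secreted markers, Adipoq varied most from mouse to mouse. Its deposited intensity had a lowest, median and highest value of 235, 323 and 624 in MKO mice on CR and of 216, 378 and 483 in MKO mice on the control diet. In FLOX mice it was 238, 337 and 669 on CR, and 148, 431 and 991 on the control diet. The 4 groups overlapped over most of their ranges, and both the highest and the lowest value of all 26 mice were FLOX mice on the control diet, 6.71-fold apart. The 5 highest mice came from 3 groups: FLOX control-diet mouse 3 at 991, FLOX CR mouse 2 at 669, FLOX control-diet mouse 2 at 639, and MKO CR mice 7 and 1 at 624 and 582.

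Adipoq changed with neither diet nor genotype past the threshold in the limma fit over all genes (Benjamini-Hochberg adjusted p under 0.05). Its log2 change under CR was 0.06 in MKO mice (SE 0.31, 95% interval -0.58 to 0.69, adjusted p = 0.936) and -0.13 in FLOX mice (SE 0.33, interval -0.81 to 0.55, adjusted p = 0.875). Between MKO and FLOX mice it was -0.24 on the control diet (SE 0.32, interval -0.90 to 0.42, adjusted p = 0.644) and -0.06 on CR (SE 0.32, interval -0.71 to 0.60, adjusted p = 0.933). The intervals are wide, and the one for CR in MKO mice reaches from 0.671- to 1.61-fold. FLOX control-diet mouse 3 set the sign of both differences that involve its group: without it the change under CR in FLOX mice was 0.12 and that between MKO and FLOX mice on the control diet was 0.01.

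Retn, resistin, had the second largest spread of the 5 measured markers. Its lowest, median and highest intensities were 204, 243 and 346 in MKO mice on CR, and 195, 223 and 289 in MKO mice on the control diet. In FLOX mice they were 217, 275 and 341 on CR, and 201, 227 and 328 on the control diet. The CR groups reached higher and lay above their control-diet groups at the median, but the ranges overlapped in both genotypes: 4 of 7 MKO mice and 5 of 6 FLOX mice on CR were above the median of their genotype on the control diet. The log2 change under CR was 0.18 in MKO mice (SE 0.12, adjusted p = 0.362) and 0.18 in FLOX mice (SE 0.13, adjusted p = 0.464), and averaged over the genotypes it was 0.18 (SE 0.09, interval -0.00 to 0.36, adjusted p = 0.151 by limma). Between MKO and FLOX mice the change was -0.07 on each diet.

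Lep, leptin, was dim, with a mean under the 30th percentile of the probe sets. It had a lowest, median and highest value of 120, 130 and 140 in MKO mice on CR, and of 127, 135 and 156 in MKO mice on the control diet. In FLOX mice these were 106, 130 and 156 on CR, and 134, 153 and 164 on the control diet. The control-diet groups were the higher ones in both genotypes, and 4 of the 6 FLOX mice on CR lay below all FLOX mice on the control diet.

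Because Lep lay under the filter, its test comes from a fit of all 18193 genes with no filter. The log2 change of Lep under CR was -0.08 in MKO mice (SE 0.06, adjusted p = 0.442) and -0.17 in FLOX mice (SE 0.07, adjusted p = 0.125). Averaged over the genotypes Lep fell under CR by 0.13 on the log2 scale (SE 0.05, interval -0.22 to -0.03, adjusted p = 0.0463 by limma), in a comparison in which 19.8% of all genes were called without the filter. This call was lost when any 1 of 16 mice was left out, with adjusted p between 0.0521 and 0.0926: MKO CR mice 1, 3, 5 and 6, MKO control-diet mice 2, 4, 6 and 7, FLOX CR mice 1, 3, 5 and 6, and FLOX control-diet mice 2, 3, 4 and 5. It was also lost with the slow fibre markers as a covariate (change -0.13, adjusted p = 0.0526), and the change in FLOX mice passed without FLOX CR mouse 2 (-0.22, adjusted p = 0.0391). At this brightness the floor of the array takes up much of the value, and changes of dim genes are compressed toward 0.

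Of the markers that are proteins of the lipid droplet, Cidec was measured and Plin1 was not; Cidec helps droplets fuse into the single large one of white fat. Its lowest, median and highest intensities were 172, 199 and 220 in MKO mice on CR, and 173, 187 and 217 in MKO mice on the control diet. In FLOX mice they were 175, 192 and 203 on CR, and 194, 199 and 223 on the control diet. Over all mice they spanned only 1.30-fold, the smallest range of the 5 markers. Cidec was dim as well: its median over all mice, 194, lay below the lowest array median of 212. The part of the array floor in its narrow range was not tested. The FLOX control-diet group was the highest at its low end: 5 of 6 FLOX mice on CR and 5 of 7 MKO mice on the control diet lay below all of its mice. The differences were small beside the spread, with log2 changes under CR of 0.03 in MKO mice (SE 0.05, adjusted p = 0.743) and -0.07 in FLOX mice (SE 0.05, adjusted p = 0.467). On the control diet the change between MKO and FLOX mice was -0.08 (SE 0.05, adjusted p = 0.301 by limma).

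Pparg, the transcription factor of the set, was called between genotypes only when averaged over the diets, and it was not called for diet. Its lowest, median and highest intensities were 247, 264 and 279 in MKO mice on CR, and 216, 242 and 293 in MKO mice on the control diet. In FLOX mice they were 254, 288 and 309 on CR, and 254, 280 and 324 on the control diet. All 7 MKO mice on CR lay below the median of the FLOX mice on CR, and 4 of 7 MKO mice on the control diet lay below all FLOX mice on that diet.

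Averaged over the diets, Pparg fell in MKO mice by 0.15 on the log2 scale (SE 0.05, interval -0.24 to -0.05, adjusted p = 0.0164 by limma). In that comparison 33.0% of all genes were called. The single-diet differences did not pass: the log2 change was -0.17 on the control diet (SE 0.07, adjusted p = 0.0698) and -0.12 on CR (SE 0.07, adjusted p = 0.222). On the control diet it passed without MKO mouse 3 or 5 (adjusted p = 0.0484 and 0.0212) and without FLOX mouse 1 or 5 (adjusted p = 0.0425 and 0.0451). The averaged call was lost with quantile normalization (change -0.12, adjusted p = 0.0507), and with the mean log2 value of 7 slow fibre markers as a covariate (change -0.11, adjusted p = 0.14). The summed intensity of those 7 slow fibre genes was itself higher in MKO mice, at 8589 to 23524 in MKO mice on CR and 7523 to 12940 in MKO mice on the control diet, against 4889 to 8449 in FLOX mice on CR and 3787 to 11375 in FLOX mice on the control diet. Gene by gene, 1 of the 7 was called higher in MKO mice on each diet and 2, Myl2 and Myl3, averaged over the diets, near the shares of all genes called.

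**Figure D1:**
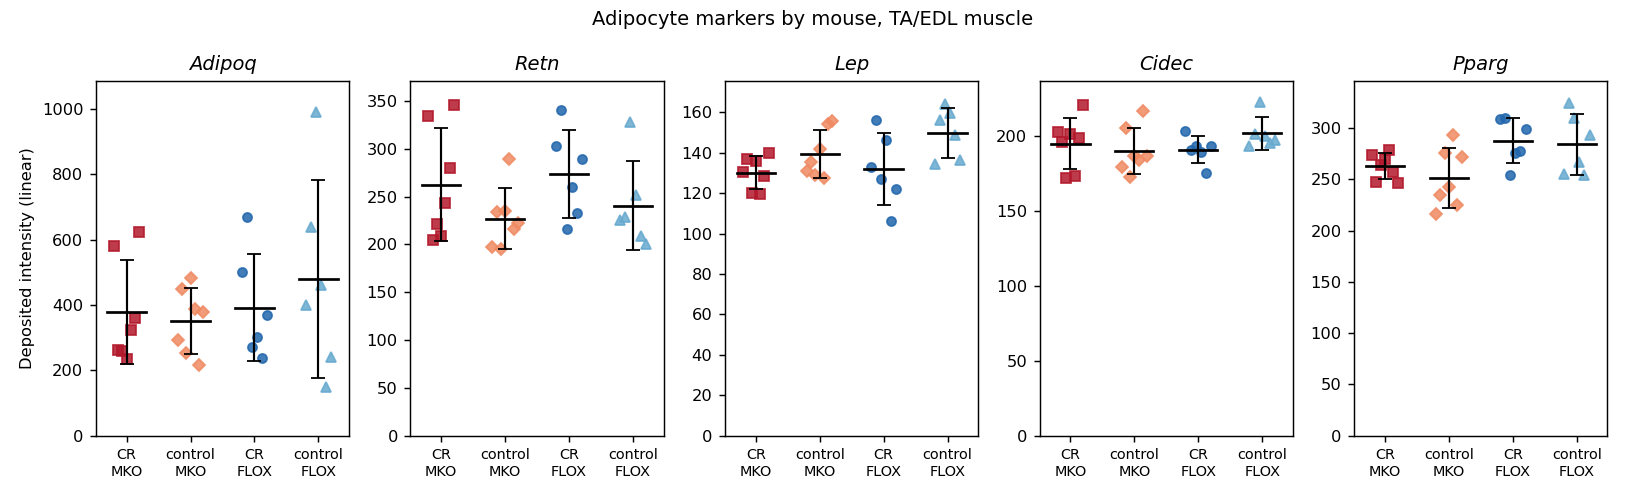
Deposited intensity (linear, from 0) of the 5 measured adipocyte markers, 1 point per mouse, with the mean and SD of each group as a bar and whiskers. Adipoq spans 148 to 991 over the 26 mice, and the other 4 markers stay within a 1.30- to 1.77-fold range, with groups that overlap in every panel.

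Few of the markers were called between groups. Under CR in MKO mice 0 of the 4 tested markers were called, where 15.1% of all 14847 genes were, and under CR in FLOX mice 0 of 4 where 10.0% were. Between MKO and FLOX mice 0 of 4 were called on the control diet and 0 of 4 on CR, where 19.3% and 17.3% of all genes were. For the interaction, which sets the change under CR in MKO mice against the one in FLOX mice, limma called 0 of 4 markers and 0% of all genes, with 720 genes and 0 markers at an unadjusted p under 0.05. Averaging over the other factor gave 0 of 4 markers for diet, where 23.9% of genes were called, and 1 of 4, Pparg, for genotype, where 33.0% were. With 4 genes, these shares cannot be set apart from those of all genes. Here and below, the share of all genes called counts both directions. Under CR 986 genes were called higher and 1260 lower in MKO mice, and 692 higher and 798 lower in FLOX mice.

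The median log2 change of the 4 markers was 0.06 under CR in MKO mice and -0.03 under CR in FLOX mice, beside a median of 0.00 over all genes in both. It was -0.12 between MKO and FLOX mice on the control diet and -0.06 on CR, beside -0.02 over all genes in both. The summed intensity of the 4 markers lay between 911 and 1437 in MKO mice on CR, 873 and 1153 in MKO mice on the control diet, 924 and 1510 in FLOX mice on CR, and 805 and 1852 in FLOX mice on the control diet. The FLOX control-diet range contained those of the other groups.

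**Figure D2:**
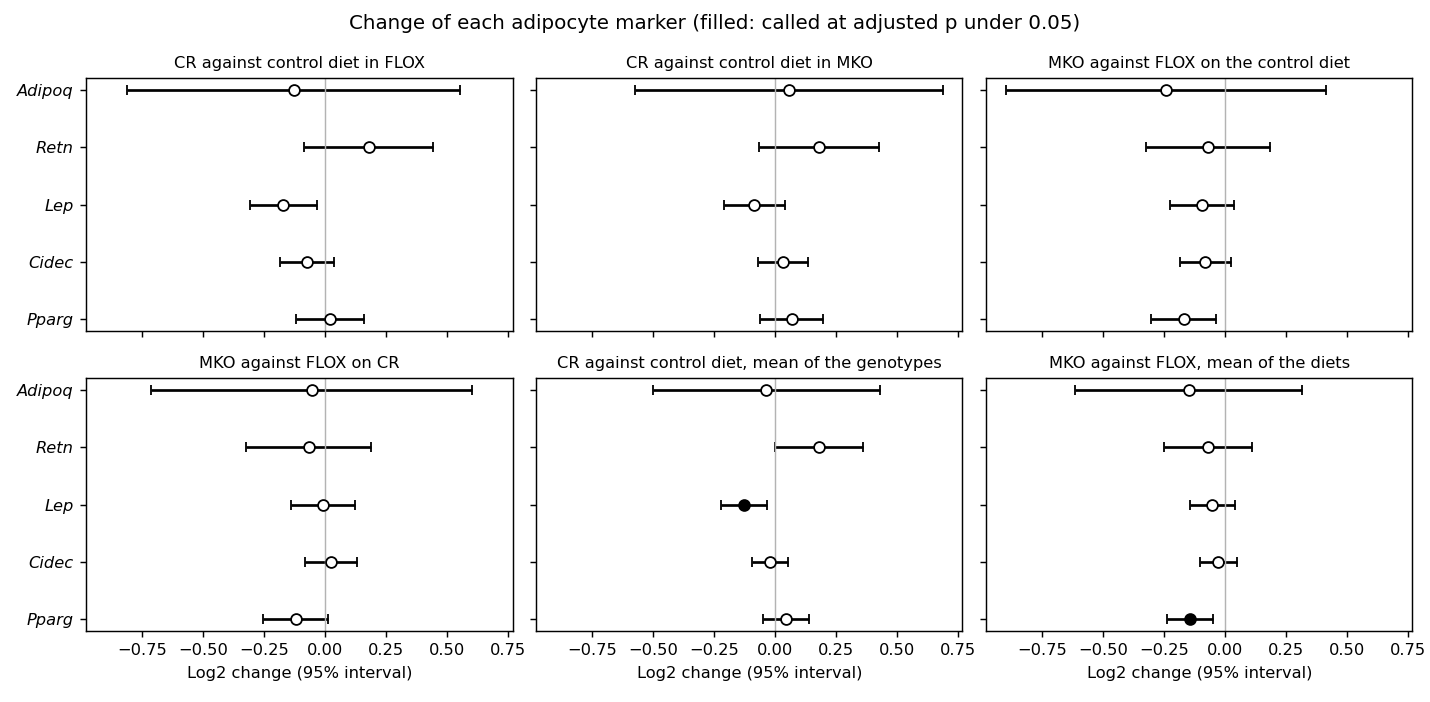
Log2 change of each adipocyte marker with its 95% interval (horizontal axis) in 6 comparisons, from limma on log2(intensity + 16); Lep comes from the fit with no filter, and filled points passed an adjusted p of 0.05. The intervals of Adipoq are the widest, reaching from -0.81 to 0.55 for CR in FLOX mice, and the filled points are Lep averaged over the genotypes and Pparg averaged over the diets.

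The spread inside the groups was where Adipoq stood out. Its within-group SD was 0.63 on the log2 scale, the 20th largest of 14847 genes (percentile 99.9), against a median of 0.09 over all genes. Retn had an SD of 0.24 (percentile 96.8). Pparg and Cidec had SDs of 0.12 (percentile 73.1) and 0.09 (percentile 49.1). Adipoq and Retn therefore differed between mice of one group far more than most genes, and Cidec no more than the typical gene. An SD at a low intensity also depends on the floor of the array: among the 1000 genes nearest in mean level, Adipoq was at percentile 99.9, Retn at 98.8, Pparg at 73.4 and Cidec at 63.8.

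Mice high in Adipoq were also high in Retn. Of the 5 mice highest in Adipoq, 4 were among the 5 highest in Retn, and 3, 2 and 3 were among the 5 highest in Lep, Cidec and Pparg. Over deviations from the group means in 26 mice, Adipoq and Retn correlated at a Pearson r of 0.82 and a Spearman rho of 0.85. The permutation p within groups was 1e-05 for both, the smallest that 100000 resamples can give, and 0.0001 after Benjamini-Hochberg adjustment over the 10 pairs of markers. Without the 2 mice farthest from the median of Adipoq, FLOX control-diet mice 5 and 3, r was 0.84. Group by group, r was 0.98 in MKO mice on CR, 0.57 in MKO mice on the control diet, 0.94 in FLOX mice on CR and 0.83 in FLOX mice on the control diet.

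Lep and Cidec formed the other pair past the threshold, with r = 0.58 and rho = 0.58 (permutation test, adjusted p = 0.00405 for r and 0.00995 for rho) and r = 0.61 without FLOX CR mice 5 and 2. Both probe sets are dim, and values near the floor share the background of their array; the part of that in the relation was not tested. The other 8 pairs had an adjusted permutation p between 0.0668 and 0.779. Adipoq had an r of 0.41 with Lep, 0.42 with Cidec and 0.43 with Pparg, and Retn had 0.37 with Lep, 0.49 with Cidec and 0.39 with Pparg. Lep with Pparg gave 0.06, and Cidec with Pparg gave -0.11, the 1 negative value of the 10 pairs. A p that misses the threshold does not show that a pair varied independently.

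**Figure D3:**
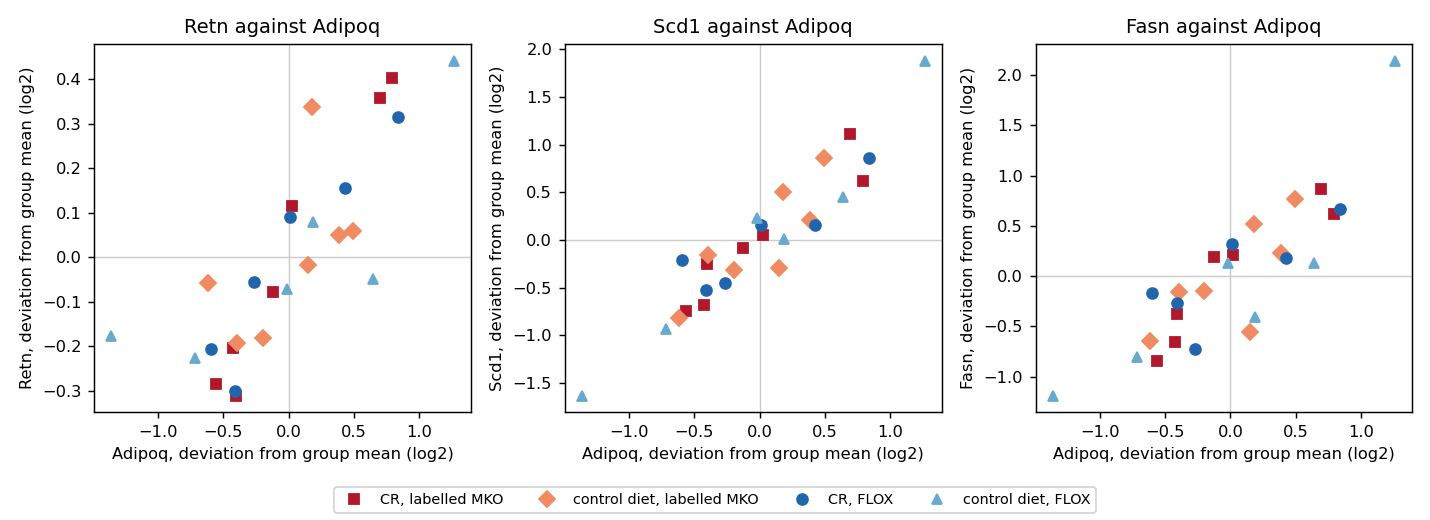
Deviation of Retn, Scd1 and Fasn from their group means (vertical, log2) against that of Adipoq (horizontal, log2), 1 point per mouse, with colour and shape for the 4 groups. In each panel FLOX control-diet mouse 3 is at the upper right, and the correlations over the 26 mice are 0.82 for Retn, 0.94 for Scd1 and 0.86 for Fasn.

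Of the 15 genes outside the markers whose values went most with Adipoq from mouse to mouse, 4 belong to fatty acid synthesis. The measure was Pearson's r of deviations from the group means over the 26 mice, given as a description: all genes were read on the same arrays, so each pair shares library and array. Scd1, the desaturase that makes monounsaturated fatty acids, had the highest r at 0.94 (0.84 to 0.98 in the single groups). Fasn, fatty acid synthase, had 0.86 (0.73 to 0.94 in the single groups), Acaca, acetyl-CoA carboxylase 1, had 0.79, and Elovl6, a fatty acid elongase, had 0.73. These 4 belong to the list of 20 tested lipid synthesis and storage genes that muscle fibres share with fat.

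Cyp2e1, a cytochrome P450 enzyme, reached 0.85 over all mice and 0.91 to 0.98 inside the groups. The others of these 15 were all below Retn, at 0.82: Cdo1 (cysteine dioxygenase) at 0.81, Slc36a2 (an amino acid transporter) at 0.80, Hp (haptoglobin) at 0.78, Tkt (transketolase) at 0.77, Orm1 (orosomucoid) at 0.76, Agpat2 (an acyltransferase of triglyceride synthesis) at 0.75, Apoe (apolipoprotein E) at 0.75, Cfp (properdin) at 0.74, Tspo at 0.73 and Ttl at 0.72. Agpat2 was the 1 of these that was on the list of other adipocyte-enriched genes. At the opposite end were Msi2 at -0.76, Klf9 at -0.75, Vdac2 at -0.73, Tlcd3b at -0.72 and Med6 at -0.71.

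Such values were rare. Over 14846 genes the median r with Adipoq was -0.01, the 5th and 95th percentiles were -0.39 and 0.41, and 19 genes (0.128%) were above 0.7, with 6 below -0.7. Of the 15 highest outside the markers, 13 stayed among the 15 highest under quantile normalization and 9 did without FLOX control-diet mice 5 and 3. The amplitude was as large as that of Adipoq itself only for Scd1 and Fasn among the 15: the log2 slope on Adipoq was 1.16 for Scd1 and 1.02 for Fasn, against 0.61 for Cyp2e1 and 0.38 for Acaca. The intensity of Scd1 ranged from 1060 to 12285 over the mice and that of Fasn from 253 to 2689, both with the top and bottom value in FLOX control-diet mice 3 and 5.

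**Figure D4:**
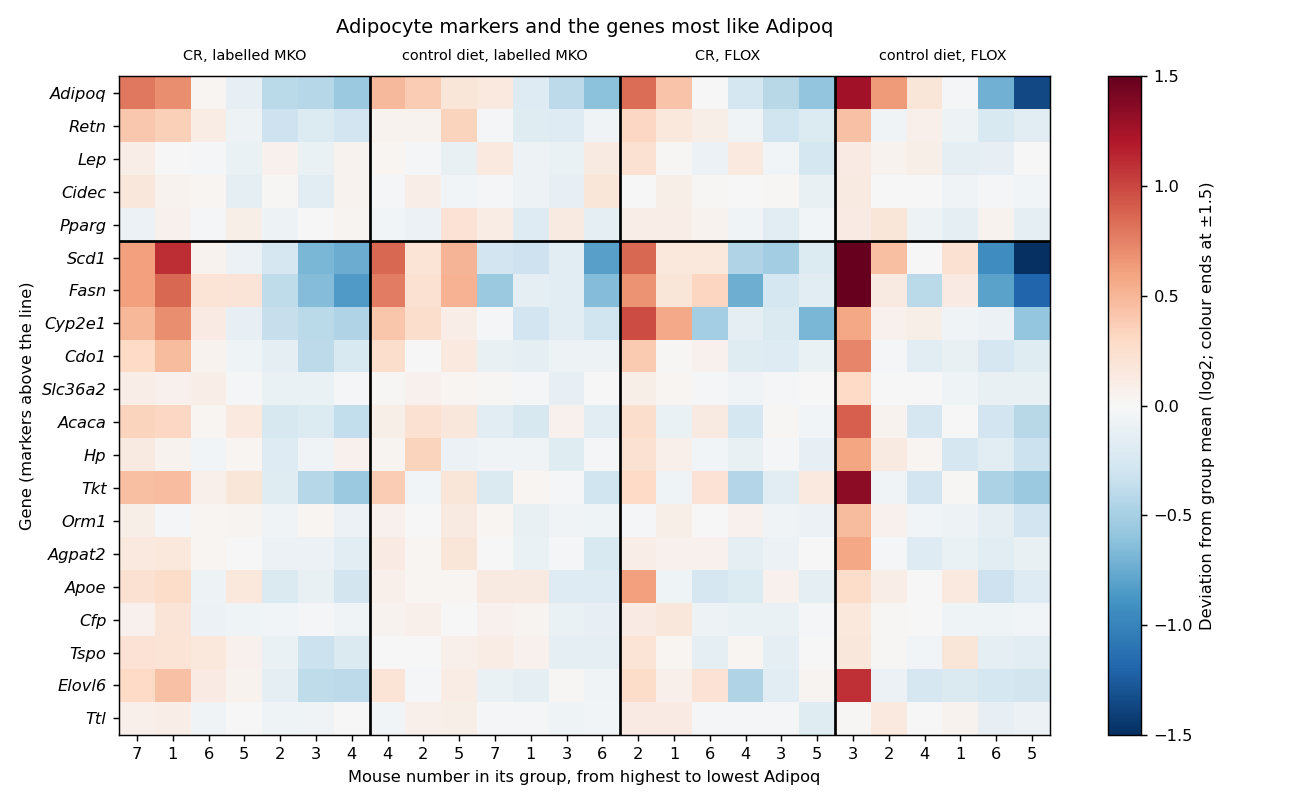
Deviation from the group mean (colour, log2, ending at ±1.5) of the 5 adipocyte markers (above the line) and the 15 genes outside the markers most like Adipoq (below it) in each mouse, ordered inside each group by Adipoq. Scd1 and Fasn follow the gradient of Adipoq in every group, and Lep, Cidec and Pparg show little of it.

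Genes of other lists went with Adipoq to a lesser degree, and the highest and lowest gene of a list are named after their values were seen. Of the 17 tested genes on the list of other adipocyte-enriched genes, 6 had an r over 0.5 and 5 were below 0, with a median of 0.40. Agpat2 led at 0.75, followed by Pck1 (the cytosolic enzyme of glyceroneogenesis in fat) at 0.69, Thrsp (a regulator of lipogenesis) at 0.62, Cebpa (the C/EBPα factor) at 0.61, Rbp4 (retinol-binding protein) at 0.59 and Lipe (hormone-sensitive lipase) at 0.53. Fabp4, a fatty acid-binding protein of fat cells that capillary endothelium also makes, had 0.42. Car3, carbonic anhydrase 3, which slow muscle fibres also make, had -0.37, and Plin4, Npr3, Gpd1 and Trarg1 were below 0 as well.

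The 20 lipid genes split: 6 were over 0.5 and 8 below 0, with a median of 0.13, and the low end was Abhd5, the activator of triglyceride lipase, at -0.35. Markers of cells that lie beside fat cells had medians of 0.39 for macrophages (7 genes, led by Lyz2 at 0.56) and 0.32 for fibroblasts and fat progenitors (10 genes, with Zfp423 the highest at 0.45). The 10 muscle fibre markers had a median of 0.35, led by Mylpf at 0.63. Endothelial markers had 0.10 (8 genes), nerve and Schwann cell markers 0.24 (5 genes), red blood cell markers 0.23 (2 genes), slow fibre markers 0.05 (7 genes), skin markers 0.03 (4 genes), tendon markers -0.12 (6 genes) and lymphocyte markers -0.31 (3 genes). So the median of the adipocyte-enriched list was not far above that of the muscle fibre list, and no test of their difference was made. The muscle fibre markers were very bright: the 10 summed to 289471 to 304065 in a mouse, where single array maxima were 37243 to 38435. Compression of their values near the top of the scale was not tested.

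Brown fat markers were few on these arrays: 4 of 7 passed the filter, with a median r of 0.15. Cidea, a droplet protein of brown fat, had 0.50, and Ucp1, the uncoupling protein that defines brown fat, had 0.40, while Dio2, the deiodinase that activates thyroid hormone, had -0.09 and Prdm16, a transcription regulator of brown fat, had -0.27. None of the deposited values was at 0, so absence of a marker could not be read from the files.

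**Figure D5:**
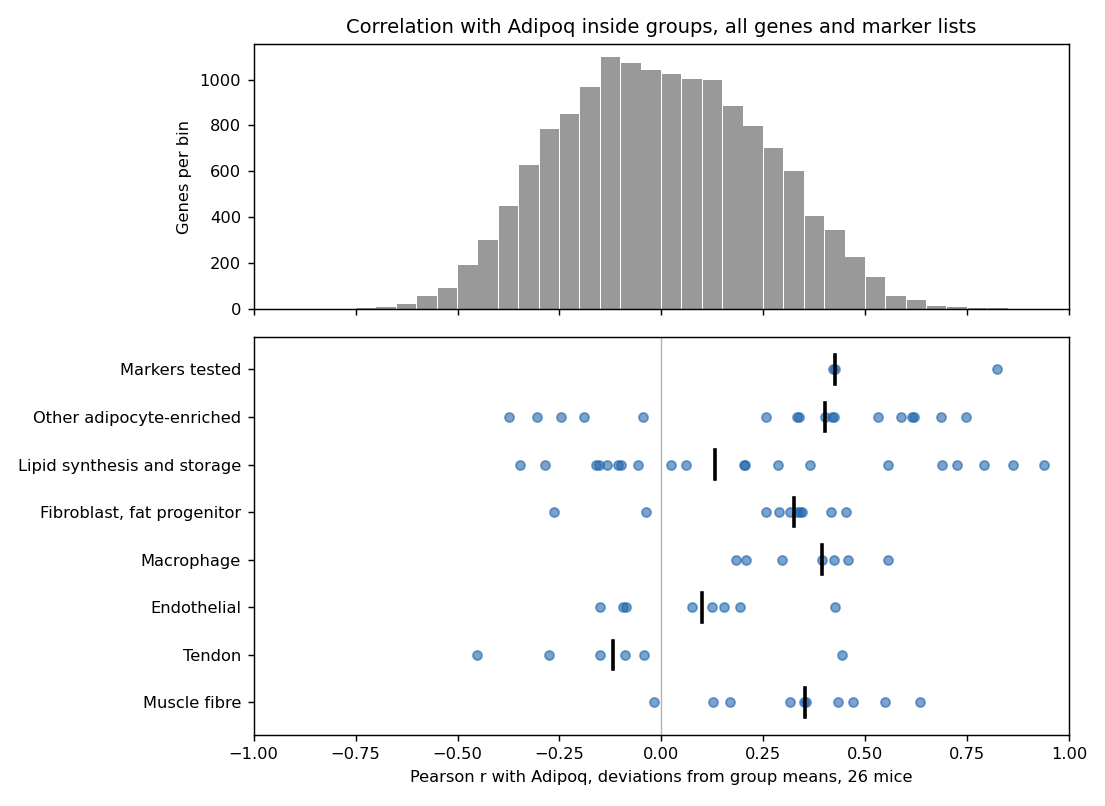
Upper panel: number of genes per bin of Pearson r with Adipoq (horizontal axis, deviations from group means over 26 mice) for 14846 genes. Lower panel: r of each tested gene of 8 marker lists on the same axis, 1 point per gene, with a black line at the list's median; the lines lie at 0.40 for other adipocyte-enriched genes, 0.13 for lipid genes, 0.35 for muscle fibre genes and -0.12 for tendon genes.

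Of the 20 other adipocyte-enriched genes listed, 17 were tested. Under CR 1 of them rose in MKO mice and 0 fell, and 2 rose in FLOX mice and 0 fell. These counts are near or below the shares of all genes called, 15.1% in MKO and 10.0% in FLOX mice. Npr3, the clearance receptor for natriuretic peptides, rose in both, with a lowest, median and highest intensity of 597, 722 and 890 in FLOX mice on CR against 383, 460 and 546 in FLOX mice on the control diet. The FLOX groups did not overlap, though the share of all genes without overlap was not computed. The log2 change of Npr3 was 0.60 (SE 0.14, adjusted p = 0.00544) in MKO mice and 0.66 (SE 0.16, adjusted p = 0.00684) in FLOX mice. Plin4, a perilipin that muscle also expresses, rose in FLOX mice by 0.44 (SE 0.12, adjusted p = 0.0228 by limma), and its change in MKO mice was 0.27 (adjusted p = 0.118). The Plin4 call was lost without FLOX CR mouse 5 or 6 or FLOX control-diet mouse 1 (adjusted p 0.0622 to 0.0701). Neither Npr3 nor Plin4 went with Adipoq across mice: their r was -0.25 and -0.30.

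In MKO mice on the control diet 1 of the 17 rose and 4 fell, and on CR 1 rose and 2 fell. Of all genes, 19.3% were called on the control diet and 17.3% on CR, and the difference from those shares was not tested. Adig, adipogenin, a small protein of adipocyte development, had a lowest, median and highest intensity of 136, 149 and 169 in MKO mice against 176, 201 and 226 in FLOX mice on the control diet. On CR they were 148, 162 and 175 in MKO mice against 180, 214 and 284 in FLOX mice. The genotypes did not overlap on either diet, and here too the share of all genes without overlap was not computed. Adig was dim, and it passed the filter, at an intensity of 162, on a mean over all mice that the FLOX groups raised. Its median in MKO mice on the control diet lay below that limit, and the part of the filter in these differences was not tested. Adig fell in MKO mice by 0.38 (SE 0.07, adjusted p = 0.000395) on the control diet and by 0.39 (SE 0.07, adjusted p = 0.000234) on CR.

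Lipe, which releases fatty acids from stored fat and is also made by muscle, fell in MKO mice by 0.21 (SE 0.06, adjusted p = 0.0155) on the control diet and by 0.25 (SE 0.06, adjusted p = 0.00472) on CR. On the control diet Agpat2 fell by 0.32 (adjusted p = 0.0136) and Rbp4 by 0.50 (adjusted p = 0.00433); on CR their changes were -0.18 (adjusted p = 0.181) and -0.10 (adjusted p = 0.632), and the interaction was called for neither gene (adjusted p = 0.999 for both). FLOX control-diet mouse 3 was high in Agpat2: without it the change on the control diet was -0.20 (adjusted p = 0.0249), and the unmoved change on CR passed too (adjusted p = 0.0369). The control-diet call of Lipe was lost without FLOX mouse 2 (adjusted p = 0.0545). Car3 was higher in MKO mice by 0.23 on each diet (adjusted p = 0.000314 and 0.000233 by limma). Fabp4 had median intensities of 7090 in MKO mice on CR, 7561 in MKO mice on the control diet, 7419 in FLOX mice on CR and 7896 in FLOX mice on the control diet, with adjusted p between 0.217 and 0.717 in the 4 comparisons. The remaining genes, Aqp7, Cebpa, Gpd1, Mest, Pck1, Sfrp5, Sncg, Thrsp and Trarg1, did not pass in any of the 4 comparisons. Averaged over the diets 1 of the 17, Car3, rose in MKO mice and 7 fell, beside 33.0% of all 14847 genes called (2211 higher and 2684 lower). Those that fell were Adig, Lipe, Agpat2, Rbp4, Cebpa (change -0.16, adjusted p = 0.0137), Mest (change -0.16, adjusted p = 0.0144) and Pck1 (change -0.19, adjusted p = 0.0357). Pck1 was not called without MKO CR mouse 2 or 3, MKO control-diet mouse 3, 6 or 7, FLOX CR mouse 1, 2 or 4, or FLOX control-diet mouse 3 (adjusted p 0.0529 to 0.0623). The list's median change was 0.02 under CR in MKO mice, -0.03 under CR in FLOX mice, -0.12 between MKO and FLOX mice on the control diet and -0.10 on CR.

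Lipid synthesis and storage genes changed in both directions. Of 20 tested, 4 rose and 4 fell under CR in MKO mice, and 2 rose and 4 fell under CR in FLOX mice. Of all genes, 15.1% were called under CR in MKO mice and 10.0% in FLOX mice. Pnpla2, the first lipase of triglyceride breakdown, rose under CR by 0.60 (SE 0.09, adjusted p = 2.9e-05) in MKO mice and by 0.44 (SE 0.09, adjusted p = 0.00243) in FLOX mice. Dgat2, which makes triglyceride, rose by 0.62 (SE 0.11, adjusted p = 0.000434) in MKO mice and 0.55 (SE 0.12, adjusted p = 0.00451) in FLOX mice. Gpam, the first acyltransferase of glycerolipid synthesis, fell by 0.31 in MKO mice (adjusted p = 0.000305) and by 0.29 in FLOX mice (adjusted p = 0.00188), and Me1, malic enzyme, fell by 0.38 in MKO mice (adjusted p = 0.000754) and by 0.46 in FLOX mice (adjusted p = 0.000405 by limma).

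Between MKO and FLOX mice 1 lipid gene rose and 6 fell on each diet, where 19.3% of all genes were called on the control diet and 17.3% on CR. Pnpla2 fell by 0.60 (SE 0.09, adjusted p = 2.01e-05) on the control diet and by 0.45 (SE 0.09, adjusted p = 0.000631) on CR, and Dgat2 by 0.62 (adjusted p = 0.000452) and 0.55 (adjusted p = 0.00153). On the control diet Fabp3, the fatty acid-binding protein of muscle, fell by 0.55 (adjusted p = 0.000545) and Plin5, the perilipin that ties droplets to mitochondria, by 0.72 (adjusted p = 0.000978 by limma). The 2 lipid genes that follow Adipoq most closely did not pass in the diet comparisons: the log2 change of Scd1 under CR was 0.12 (SE 0.38, adjusted p = 0.885) in MKO mice and 0.37 (SE 0.41, adjusted p = 0.669) in FLOX mice, and that of Fasn was 0.65 (SE 0.37, adjusted p = 0.26) in MKO mice and 0.56 (SE 0.39, adjusted p = 0.45) in FLOX mice. Single mice carried much of these values: without FLOX control-diet mouse 3 the change in FLOX mice was 0.75 for Scd1 and 0.99 for Fasn (adjusted p = 0.241 and 0.052), and without FLOX control-diet mouse 5 it was 0.0463 and 0.32. Leaving out 1 mouse gave -0.0645 to 0.26 for Scd1 in MKO mice.

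The values of those genes beside a constant Adipoq were read by adding the log2 value of Adipoq to the fit as a covariate, an alternative chosen after seeing the data for genes other than the markers. Under CR in MKO mice, 10 lipid genes of 20 were called with the covariate and 8 without, in fits that called 15.5% and 15.1% of all genes. Fasn then passed at 0.59 (SE 0.19, adjusted p = 0.0329). Under CR in FLOX mice 8 were called with the covariate and 6 without (10.3% and 10.0% of all genes), and Fasn passed at 0.69 (SE 0.20, adjusted p = 0.0302) and Scd1 at 0.52 (SE 0.15, adjusted p = 0.0229).

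Averaged over the genotypes 11 lipid genes were called with the covariate and 7 without (24.3% and 23.9% of all genes). Retn then passed for diet, at a log2 change of 0.19 (SE 0.05, adjusted p = 0.00862 by limma) with the covariate against 0.18 (adjusted p = 0.151) without. With the covariate the SEs of Fasn, Scd1 and Retn were smaller, and the change of Scd1 in FLOX mice was 0.52 against 0.37 without it. The smaller SEs were largely fixed in advance, because these genes were already known to vary with Adipoq inside the groups on the same arrays. Their passing with the covariate, also with 1 mouse left out, is therefore no separate support for a change under CR. Without 1 mouse the Retn call stood in every case (adjusted p 0.00133 to 0.0179). That of Fasn in MKO mice was lost without MKO CR mouse 1, 2, 5 or 6 or MKO control-diet mouse 2 or 7 (adjusted p up to 0.085). In FLOX mice Fasn was lost without CR mouse 3, 5 or 6 or control-diet mouse 2, 4 or 6 (adjusted p up to 0.0837), and Scd1 without CR mouse 5 or 6 or control-diet mouse 2, 4 or 5 (adjusted p up to 0.0668). Of all genes called without the covariate, 2205 of 2246 under CR in MKO mice and 1447 of 1490 under CR in FLOX mice were called with it too. A covariate measured on the same arrays can also carry an effect of the diet on the gene itself, which cannot be told apart from fat in the sample.

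Of 12 adipogenic transcription factors 0 were called under CR in either genotype, where 15.1% of all genes were in MKO and 10.0% in FLOX mice, and 1, Rxra, the partner of PPARγ, fell under CR averaged over the genotypes, by 0.16 (adjusted p = 0.0201 by limma). Leaving out 1 mouse gave 0 to 1 factor called under CR in each genotype. Srebf1, the regulator of lipid synthesis genes, rose in MKO mice by 0.39 (SE 0.13, adjusted p = 0.0346) on the control diet and by 0.65 (SE 0.13, adjusted p = 0.000803) on CR, the 1 factor of 12 called in each, beside 19.3% and 17.3% of all genes. On the control diet that call was lost without MKO mouse 1, 2 or 3 or FLOX mouse 3, 5 or 6 (adjusted p 0.0574 to 0.115). Averaged over the diets 3 factors rose in MKO mice, Srebf1, Rxra and Zfp423, and Cebpa fell, 4 of 12 beside 33.0% of all genes, and Zfp423 was not called without FLOX control-diet mouse 6 (adjusted p = 0.0506).

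Of 8 tested receptors and partners of the secreted markers, 2 fell under CR in each genotype, where 15.1% of all genes were called in MKO and 10.0% in FLOX mice. Leaving out 1 mouse gave 0 to 2 in FLOX mice. Adipor1, an adiponectin receptor, fell by 0.12 in MKO mice (adjusted p = 0.0146) and 0.11 in FLOX mice (adjusted p = 0.0391). Cfb, complement factor B, which adipsin cleaves, fell by 0.17 in MKO mice (adjusted p = 0.00104) and 0.13 in FLOX mice (adjusted p = 0.0269 by limma). In FLOX mice the Adipor1 call was lost without any 1 of CR mice 1 to 4 or any 1 of the control-diet mice (adjusted p up to 0.0966), and that of Cfb without CR mouse 1 or 3 or control-diet mouse 1, 2 or 3 (adjusted p up to 0.08).

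Adipor1 was higher in MKO than in FLOX mice by 0.20 on the control diet (adjusted p = 0.000202) and 0.19 on CR (adjusted p = 0.000211). Lepr, the leptin receptor, fell in MKO mice on the control diet by 0.11 (adjusted p = 0.01). Of the 4 tested brown fat markers 1, Cidea, was called between the genotypes on each diet, where 19.3% and 17.3% of all genes were called. Cidea fell in MKO mice by 0.28 (SE 0.08, adjusted p = 0.0183) on the control diet and by 0.45 (SE 0.08, adjusted p = 0.00037) on CR. Without FLOX control-diet mouse 3 the first of these was -0.17 (adjusted p = 0.0279). Under CR 0 of the 4 brown fat markers were called in either genotype with all mice in the fit. Dropping that mouse, a choice made after seeing the data, gave a rise of Cidea under CR in FLOX mice, by 0.33 (adjusted p = 0.000634).

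Markers of connective tissue, in which fat cells lie, fell under CR in both genotypes. Of 10 tested fibroblast and fat progenitor markers 6 fell and 0 rose under CR in each genotype. Of all genes, 15.1% were called under CR in MKO mice and 10.0% in FLOX mice. Thy1 fell by 0.37 in both (adjusted p = 9.6e-05 in MKO and 0.000356 in FLOX mice), and Dpt, dermatopontin of connective tissue, by 0.46 in MKO mice (adjusted p = 0.00269) and 0.49 in FLOX mice (adjusted p = 0.00456). The summed intensity of the 10 genes lay between 14662 and 22340 in MKO mice on CR against 21665 and 25126 on the control diet, and between 13890 and 19335 in FLOX mice on CR against 18511 and 23332 on the control diet. Tendon markers fell too, 5 of 6 in MKO and 4 of 6 in FLOX mice, beside the same shares of all genes. Tnmd, tenomodulin, fell by 0.71 in MKO mice (adjusted p = 0.000496) and 0.74 in FLOX mice (adjusted p = 0.00118).

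Endothelial markers fell under CR in 4 of 8 genes in MKO mice and in 1 of 8 in FLOX mice, where 15.1% and 10.0% of all genes were called. Here and in the lists that follow, a single call cannot be set apart from those shares. Emcn fell by 0.21 in both (adjusted p = 0.00122 in MKO and 0.00325 in FLOX mice by limma). Of the 7 tested macrophage markers 1, Adgre1, fell in FLOX mice, by 0.15 (adjusted p = 0.0299, lost without CR mouse 1, 5 or 6 or control-diet mouse 3, 4 or 5), and 0 were called in MKO mice. Of the 10 muscle fibre markers 1, Mylpf, rose, by 0.08 in MKO mice (adjusted p = 0.0201) and 0.11 in FLOX mice (adjusted p = 0.00808). Of the 4 skin markers Krt10 rose, by 0.19 in MKO mice (adjusted p = 0.000736) and 0.18 in FLOX mice (adjusted p = 0.0042). The part of these shifts in the values of the adipocyte markers was not tested.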

How the data were processed

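Biotin-labelled cRNA of each mouse was hybridised to 1 Affymetrix array, per the labels' protocols. The authors deposited 1 processed intensity per probe set and array for 45101 probe sets, on a linear scale with a floor near 57 to 63; their background correction, probe summary and normalization are not given in the sources used here. From these values log2(intensity + 16) was computed, with no further normalization. Fold changes are on that scale and understate the change of dim genes. Of the probe sets 34945 named 1 gene, 932 several and 9160 none, and 64 were controls; only the first kind was used. Probe sets with a mean under the 30th percentile (log2 7.47) were left out, and the brightest probe set of each gene was taken. A linear model with moderated variance (limma 3.58.1 under R 4.3.3, 1 mean per group, 26 arrays) was fitted with Benjamini-Hochberg adjustment over 14847 genes, or 18193 with no filter, and an adjusted p under 0.05 was called.

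Mouse-to-mouse relations used deviations from group means and two-sided permutation of mice within groups. The linear model and the ranking of genes by r with Adipoq were run on simulated data, and the permutation test was not. The simulated noise was independent from gene to gene, and the genes to be found were built from the deviations of Adipoq. Real genes share their arrays, so this checked the code and gives no support for the ranking itself. The labels name 1 array per mouse, so the limma p-values set a difference against the spread between mice, and the number of arrays limits the precision. The fit took mice as independent and did not model litter. The named genes are every marker, every tested adipocyte-enriched gene, the 15 genes outside the markers most and 5 least like Adipoq, and up to 4 called genes of smallest p per list and comparison. The markers and lists were chosen with earlier results of these data known. Alternatives changed the pseudocount, filter, normalization, probe set choice, variance model, array weights, arrays in the fit and covariates, and left out each mouse; those of the listed genes were added after seeing the data.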

Additional observations from a re-analysis of the deposited data

Results flagged for a closer look

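Of 20 sets of 1 marker in 1 group, 1 held a mouse far from the others: Cidec in FLOX control-diet mouse 3 had an intensity of 223, with a gap to the next mouse that was 0.73 of the group's range, above the limit of 0.625 for 6 mice. Chance marks about 1 set in 20. The same mouse had the highest Adipoq intensity of the series, 991.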

How the results depend on the processing

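Of 1357 recomputed log2 changes of the markers, 1283 kept their direction and their side of the threshold. The count of markers called became 1 for MKO against FLOX mice on the control diet with array weights, 1 for diet averaged over the genotypes with no filter, with every probe set as its own feature and with Adipoq as a covariate, and 0 for genotype averaged over the diets with quantile normalization and with the slow fibre covariate, which was added after seeing the data; leaving out 1 mouse gave 0 to 1 for MKO against FLOX mice on the control diet and otherwise no other count. The number of marker pairs past the threshold was 5 with linear intensity in place of 2. No call was turned in sign. The change of Adipoq under CR in MKO mice was -0.0195 with array weights. That of Retn between MKO and FLOX mice on the control diet was 0.00646 with Adipoq as a covariate, and its interaction was -0.00153 with quantile normalization, -0.0310 with array weights and -0.0571 with the covariate. That of Lep between MKO and FLOX mice on CR was 0.00166 with quantile normalization, 0.00936 with median centring and 0.0152 with array weights. The correlation of Cidec and Pparg was 0.00118 with group means kept and 0.0912 without the 2 farthest mice, and that of Lep and Pparg -0.0580 without them. Leaving out 1 mouse gave ranges that cross 0: for Adipoq -0.0751 to 0.15 (CR in MKO), -0.401 to 0.123 (CR in FLOX), -0.514 to 0.0103 and -0.188 to 0.112 (MKO against FLOX on the control diet and on CR), -0.0659 to 0.458 (interaction) and -0.172 to 0.0901 (diet, averaged); for Retn -0.127 to 0.0183 (MKO against FLOX on the control diet) and -0.0864 to 0.0651 (interaction); for Lep -0.0616 to 0.0370 and for Cidec -0.00259 to 0.0523 (both MKO against FLOX on CR); and for Pparg -0.0102 to 0.0564 (CR in FLOX). The cause of these shifts was not tested. Leaving out 1 mouse kept the Pparg call averaged over the diets (adjusted p 0.00514 to 0.0358). Whether the mouse numbers pair mice across groups was not settled. Of 37 same-numbered pairs 16 had correlated deviations over 0.1, and 2 of 26 mice correlated best with their own number. The median r of same-numbered pairs ran from -0.099 for number 5 to 0.22 for number 3. The share over 0.1 among pairs of different numbers was not computed. With the number as a replicate block the count of markers called was 0 in every comparison but genotype averaged over the diets, where it was 1 (Pparg -0.15, adjusted p = 0.0369 by limma), and Lep for diet had an adjusted p of 0.0217. No detection calls or scan dates were used, so a limit of detection and a scan batch could not be tested, and for markers near the floor, Lep first, a true change may be larger than the one measured.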
